A study of Homo sapiens with 6 samples.

Results

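The S100 proteins and the annexins are 2 families of calcium-binding proteins, and 10 of their genes were examined here: *S100A4*, *S100A6*, *S100A8*, *S100A9*, *S100A10*, *S100A11*, *ANXA1*, *ANXA2*, *ANXA5* and *ANXA6*. They were chosen by symbol, and all 10 were found among the 20348 genes of the deposited table. RNA-seq was made from MV4-11, an established human AML cell line, so every sample shares the background of 1 line. The series holds 3 samples of untreated cells (Ctrl) and 3 samples of cells given 1 μM WNK463, an inhibitor of the WNK kinases, for 48 h. The controls are described as a blank control, and no vehicle is named for them. The labels do not say whether the samples came from separate cultures, so p-values measure the spread between these samples, which may be technical.

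S100 proteins are small EF-hand proteins that mostly act as dimers, inside the cell on cytoskeletal and membrane targets and, once released, as inflammatory signals. *S100A8* and *S100A9* encode the subunits of calprotectin, which is abundant in neutrophils and monocytes. Annexins bind negatively charged phospholipids when calcium rises, and take part in membrane traffic, membrane repair and the control of inflammation. The families meet in complexes, of which the heterotetramer of the *S100A10* and *ANXA2* products at the plasma membrane is the best known.

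All 6 S100 genes lie on chromosome 1 and the 4 annexin genes lie on chromosomes 4, 5, 9 and 15 (GENCODE 29, GRCh38, the build named in the submitters' processing notes). *S100A9* (ENSG00000163220), *S100A8* (ENSG00000143546), *S100A6* (ENSG00000197956) and *S100A4* (ENSG00000196154) fall within 192.3 kb, from 153357854 to 153550136. *S100A10* (ENSG00000197747, 151982915 to 151994390) and *S100A11* (ENSG00000163191, 152032506 to 152047907) lie apart from these. Of the 6 S100 genes, *S100A9* is on the plus strand and all others are on the minus strand. *ANXA1* (ENSG00000135046) lies on chromosome 9 from 73151757 to 73170393, *ANXA2* (ENSG00000182718) on chromosome 15 from 60347134 to 60402883, *ANXA5* (ENSG00000164111) on chromosome 4 from 121667955 to 121697113 and *ANXA6* (ENSG00000197043) on chromosome 5 from 151100712 to 151157882. *S100A4* overlaps *S100A3* on the same strand, but *S100A3* had at most 9 counts in any sample. Whether the counting used strand is not given in the sources used here, and annotated antisense or pseudogene transcripts overlap *S100A6*, *S100A11* and *ANXA2* on the opposite strand.

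The upstream sequences of *ANXA1*, *S100A9* and *S100A11* are shown because these 3 genes had the largest changes among the members with TMM scaling. With total counts *S100A6* (log2 fold change 0.86) stood before *S100A11* (-0.61), as it did in the fits on TPM. Each is the part of the 250 bases before the RefSeq start (GRCh38.p14) that lies before any annotated exon base within those 250 bases. The stretches are at chr9:73151615-73151756 (plus strand), chr1:153357604-153357853 (plus strand) and chr1:152037036-152037254 (minus strand). That of *S100A11* lies inside the annotated span of the gene, 152032506 to 152047907, and not before it. Capitals mark matches on either strand to a TATA box (TATAAA), a C/EBP-type motif (TTGCNNAA), a PU.1-type motif (GAGGAA) or a GC box (GGGCGG), and no matches overlap.
ANXA1: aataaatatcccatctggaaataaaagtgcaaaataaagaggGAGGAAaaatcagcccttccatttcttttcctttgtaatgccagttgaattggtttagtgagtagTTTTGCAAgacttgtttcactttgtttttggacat
S100A9: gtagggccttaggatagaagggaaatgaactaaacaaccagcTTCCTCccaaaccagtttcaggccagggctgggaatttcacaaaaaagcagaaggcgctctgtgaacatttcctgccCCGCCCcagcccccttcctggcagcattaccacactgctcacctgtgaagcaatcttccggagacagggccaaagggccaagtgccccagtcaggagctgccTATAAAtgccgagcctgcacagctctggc
S100A11: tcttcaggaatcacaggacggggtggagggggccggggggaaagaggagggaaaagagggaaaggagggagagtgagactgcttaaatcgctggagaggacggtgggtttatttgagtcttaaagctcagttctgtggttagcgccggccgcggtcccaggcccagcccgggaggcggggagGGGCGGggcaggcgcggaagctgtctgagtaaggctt
Over the full 250 bases, TATAAA began 31 bases before the start of *ANXA1*, beyond the stretch printed, and 29 bases before that of *S100A9*, and it was not found for *S100A11*. A C/EBP-type match lay 143 to 136 bases upstream of *ANXA1* and 33 to 26 bases upstream of *S100A11*, the latter reaching past the stretch printed. GAGGAA was present 208 to 203 bases upstream of both *ANXA1* and *S100A9*, on opposite strands. Of 35116 upstream windows of the same length, 10.7% held TATAAA, 9.05% the C/EBP-type motif, 23.6% GAGGAA and 42.6% the GC box. These matches describe the letters only.

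The samples held 14915745 to 17411780 counts each, and levels are given as CPM, counts per 1000000 after TMM scaling. Genes were tested with edgeR's quasi-likelihood test, and a gene was called at an adjusted p below 0.05 over the 11973 genes tested. Of the myeloid markers listed for this line, all 10 were tested, with a summed level of 1172 to 1218 CPM in Ctrl and 1221 to 1242 CPM with WNK463. Of the 10, 5 were called higher and 3 lower, beside 35.5% higher and 35.3% lower over all tested genes. Among these markers *MPO*, the myeloperoxidase gene, fell with a log2 fold change of -2.50 and *ITGAM*, which encodes CD11b, rose with 1.25. The others called higher were *HOXA9* (0.72), *MEIS1* (0.33), *CSF3R* (0.21) and *CEBPA* (0.18). The others called lower were *CD33* (-0.38) and *FLT3* (-0.20), and *SPI1* (0.00) and *FCGR1A* (-0.05) were not called. Markers of other cell types were mostly near 0: 5 of 7 T and NK cell, 4 of 5 B cell, 7 of 8 erythroid and platelet, and 5 of 9 epithelial and stromal markers stayed below 1 CPM in every sample. *CD3D*, *CD3G*, *MS4A1*, *HBB*, *HBA1*, *ALAS2*, *PF4*, *EPCAM*, *COL1A2* and *COL3A1* had 0 counts throughout. The summed levels of these 4 lists were nevertheless higher with WNK463, at 16.5 to 17.4 against 11.3 to 14.7, 2.72 to 3.25 against 1.65 to 2.37, 40.4 to 43.3 against 13.96 to 17.5, and 183 to 197 against 113 to 125 CPM, and *NKG7*, *PAX5*, *ITGA2B* and *PECAM1* held the most of each treated sum. The part of these markers in the results was not tested. Total-count scaling raised the median log2 fold change by 0.15 relative to TMM scaling, so changes of that size are read against it.

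Of the 10 members, all of which passed the filter on low counts, 6 changed after WNK463 treatment. *ANXA1*, *S100A9*, *S100A6*, *ANXA5* and *S100A4* rose, and *S100A11* fell. Over all tested genes 70.8% were called, 35.5% higher and 35.3% lower, so a count of 6 in 10 is close to this background. At a change of at least 2-fold 2 members were called, *ANXA1* and *S100A9*, both higher, against 15.2% of all tested genes, 9.62% higher and 5.55% lower. The median log2 fold change was 0.30 over the members and 0.02 over all tested genes. With scaling by total counts, 7 members were called, 6 of them higher, since *ANXA6* was added, and the share of higher genes among all called genes was 63.9% in place of 50.2%.

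**Figure D1:**
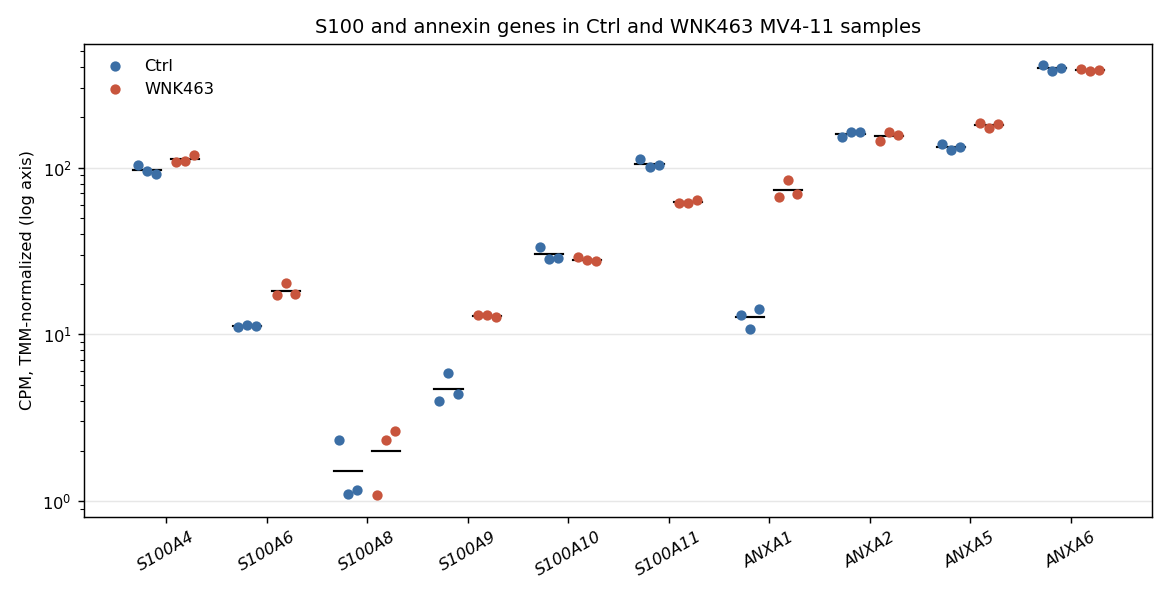
CPM of each member (log axis) in the 3 Ctrl samples (blue) and the 3 WNK463 samples (red), with a bar at each group mean. *ANXA1* and *S100A9* showed the widest gaps between the groups, while the samples of *S100A8*, *S100A10*, *ANXA2* and *ANXA6* overlapped.

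Among the annexins, *ANXA1* had the largest rise. Its product, annexin A1, is an anti-inflammatory mediator that is induced by glucocorticoids and acts on formyl peptide receptors. *ANXA1* stood at 13.02, 10.7 and 14.3 CPM in Ctrl and at 66.8, 84.7 and 69.9 CPM with WNK463. Every treated sample was above every control, and WNK463 replicate 2 was the highest. Mean levels were 12.7 ± 1.81 and 73.8 ± 9.55 CPM (SD, n = 3 each), and the fitted increase was 5.81-fold. On the log2 scale this was 2.54 with a standard error of 0.10 (edgeR adjusted p = 6.24e-13). By p-value *ANXA1* ranked 104 of the 11973 genes tested, and with each sample left out in turn its log2 fold change lay between 2.42 and 2.62.

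*ANXA5*, whose product binds phosphatidylserine and is the reagent of the annexin V apoptosis assay, rose less. It had 138, 128 and 133 CPM in Ctrl and 185, 174 and 182 CPM with WNK463. The groups did not overlap, as in 73.5% of all tested genes. The fitted log2 difference of 0.44 had a standard error of 0.05 (edgeR adjusted p = 4.12e-07).

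*ANXA2* and *ANXA6* encode annexins of membrane traffic and of the cell cortex. *ANXA2* ranged from 152 to 164 CPM in Ctrl and from 144 to 163 CPM with WNK463, and *ANXA6* from 378 to 410 and from 379 to 389 CPM. The samples of the groups overlapped for both genes. The log2 fold change of *ANXA2* was -0.05 (95% interval -0.16 to 0.07) and that of *ANXA6* was -0.04 (-0.13 to 0.06). Both turned positive with total counts, at 0.11 and 0.11, and *ANXA6* was then called (edgeR adjusted p = 0.023).

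Among the S100 genes, *S100A9* rose most. Its counts were low, 65, 85 and 72 in Ctrl and 217, 224 and 199 with WNK463. These correspond to 3.96, 5.83 and 4.39 CPM and to 13.1, 13.01 and 12.7 CPM. The treated samples differed from each other by less than the controls did, and all were above them. Mean levels were 4.72 ± 0.98 and 12.9 ± 0.211 CPM (SD, n = 3 each), and the fitted increase was 2.75-fold, or 1.46 ± 0.14 (standard error) on the log2 scale (edgeR adjusted p = 6.51e-08).

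*S100A8*, the gene of the other calprotectin subunit, was the least expressed member and was not called. Its counts were 38, 16 and 19 in Ctrl and 18, 40 and 41 with WNK463. Ctrl replicate 1 and WNK463 replicate 1 each stood apart from their group, and the groups overlapped. The variation between replicates was 45.0% of the mean in Ctrl and 40.4% with WNK463. The log2 fold change was 0.39, with a 95% interval from -0.38 to 1.16 (edgeR adjusted p = 0.35), so the interval holds a 2-fold rise. Whether the changes of *S100A8* and *S100A9* differ was tested only through their ratio. The log2 fold change of *S100A8* was 0.82 without Ctrl replicate 1 (edgeR adjusted p = 0.077) and 0.16 without WNK463 replicate 3.

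*S100A6*, also named calcyclin, had 11.1, 11.5 and 11.2 CPM in Ctrl and 17.2, 20.3 and 17.4 CPM with WNK463. All treated samples were higher, with a log2 fold change of 0.71 (standard error 0.10, edgeR adjusted p = 7.94e-06). *S100A4*, whose product binds non-muscle myosin and is known for its part in cell migration, rose by a smaller amount. It ranged from 91.1 to 104 CPM in Ctrl and from 109 to 119 CPM with WNK463, a log2 fold change of 0.22 (standard error 0.06, edgeR adjusted p = 0.0033). This is 1.16-fold, close to the shift between the scalings, and it was 0.37 with total counts.

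*S100A11* was the member that fell. Its product binds annexin A1 and takes part in membrane repair. It had 112, 101 and 104 CPM in Ctrl and 61.6, 61.6 and 64.2 CPM with WNK463, and no sample of one group reached the other. With TMM scaling its log2 fold change was -0.76 with a standard error of 0.06 (edgeR adjusted p = 1.83e-09), and with total counts it was -0.61. *S100A10* encodes the S100 protein that no longer binds calcium and that joins annexin A2. It ranged from 28.3 to 33.5 CPM in Ctrl and from 27.4 to 29.03 CPM with WNK463, with a log2 fold change of -0.11 (95% interval -0.28 to 0.06, edgeR adjusted p = 0.25). With total counts the value was 0.05.

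**Figure D2:**
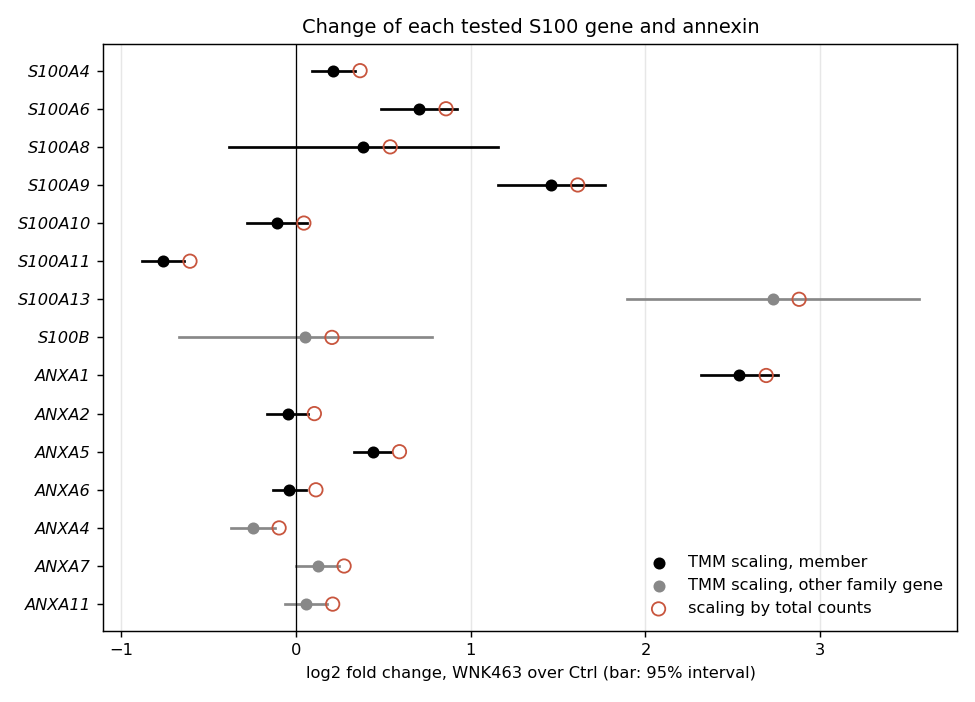
Log2 fold change of WNK463 over Ctrl for each tested S100 gene and annexin, with TMM scaling (filled points, 95% interval as a bar; members black, other genes of the families grey) and with scaling by total counts (open red circles). *ANXA1*, *S100A9* and *S100A13* rose by more than 1, *S100A11* fell by 0.76, and the values of *S100A10*, *ANXA2* and *ANXA6* changed sign between the scalings.

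Levels can be compared between genes on the TPM scale, which accounts for transcript length. In Ctrl *S100A4* (350 ± 19.6 TPM) and *S100A11* (348 ± 15.5 TPM) were the highest, and their samples overlapped. They were followed by *ANXA6*, *ANXA2*, *ANXA5*, *S100A10* and *S100A6*, from 296 down to 47.3 TPM, with no overlap between neighbours. *ANXA1* (16.8 ± 2.36 TPM) and *S100A9* (15.3 ± 3.32 TPM) overlapped, and *S100A8* was the lowest at 6.84 ± 2.99 TPM (SD, n = 3 each). With WNK463 *S100A4* again stood first, at 465 ± 19.9 TPM. *S100A11* went to the third place at 236 ± 4.54 TPM, where its samples overlapped those of *ANXA5* (235 ± 4.99 TPM), which in turn overlapped those of *ANXA2* (219 ± 15.1 TPM). *ANXA1* rose in the order from the eighth to the sixth place, at 112 ± 15.7 TPM, above *S100A10* and *S100A6*, which overlapped each other.

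The summed level of the 6 S100 members ranged from 822 to 897 TPM in Ctrl and from 911 to 958 TPM with WNK463, and that of the 4 annexins from 660 to 686 and from 874 to 917 TPM. On this scale the treated sums were above the control sums in both families, and no test was run on them. In TMM-scaled CPM, which is not per length, the S100 sum had a lower mean with WNK463 and overlapped (240.3 to 267 in Ctrl and 231 to 243 with WNK463), while the annexin sum was again higher (681 to 713 and 785 to 801).

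Because their products act together, the TPM ratio of *S100A8* to *S100A9* and that of *S100A10* to *ANXA2* were compared within each sample. The *S100A8* to *S100A9* ratio was 0.812, 0.264 and 0.363 in Ctrl and 0.116, 0.25 and 0.289 with WNK463. The groups overlapped, and the mean log2 ratio was lower with WNK463 by a difference of -1.07 (exact two-sided permutation test, p = 0.20, adjusted over 2 ratios p = 0.40). Without Ctrl replicate 1 the difference was -0.61, and without WNK463 replicate 1 it was -0.67. The *S100A10* to *ANXA2* ratio was 0.489, 0.364 and 0.376 in Ctrl and 0.452, 0.379 and 0.393 with WNK463. Its log2 values averaged -1.30 ± 0.234 and -1.30 ± 0.133 (SD, n = 3 each; exact two-sided permutation test, p = 1.0, adjusted p = 1.0). With 3 samples against 3 the smallest p of this test is 0.10.

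**Figure D3:**
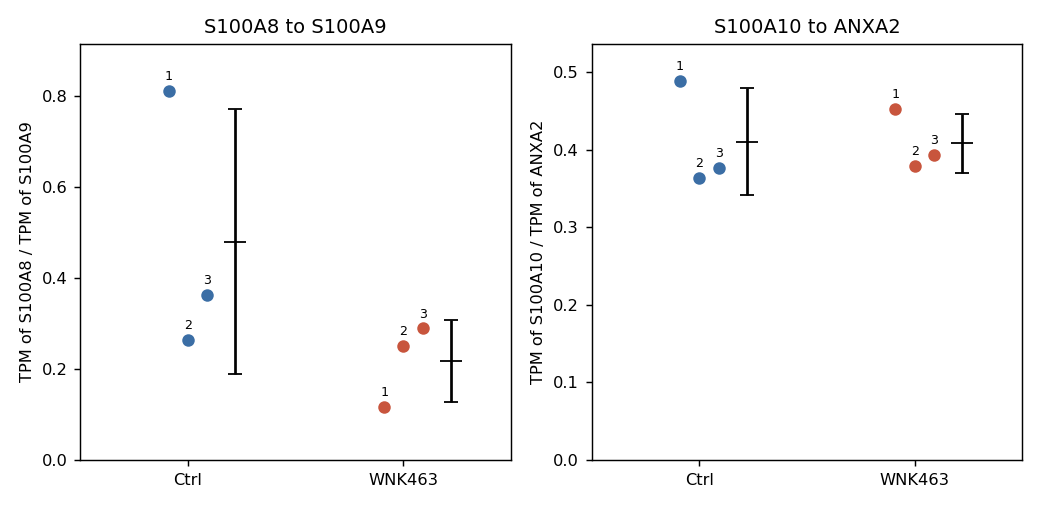
TPM ratio of *S100A8* to *S100A9* (left) and of *S100A10* to *ANXA2* (right) in each sample, with the replicate number above each point and the mean ± SD beside it. Ctrl replicate 1 had the highest *S100A8* to *S100A9* ratio, 0.812, and the *S100A10* to *ANXA2* ratio lay between 0.364 and 0.489 in all 6 samples.

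The table holds 20 S100 genes and 13 annexins, of which 8 and 7 passed the filter on low counts. Beyond the members, *S100A13*, an S100 gene linked to the release of proteins without a signal peptide, had 5, 4 and 6 counts in Ctrl and 46, 35 and 25 with WNK463. It rose with a log2 fold change of 2.73 (standard error 0.40, edgeR adjusted p = 7.43e-06), from a level near the detection limit. *S100B* had 13 to 29 counts in Ctrl and 21 to 28 with WNK463 and a log2 fold change of 0.05 (95% interval -0.67 to 0.78). *ANXA4* fell, with 57.9 ± 2.14 CPM in Ctrl and 48.8 ± 0.215 CPM with WNK463 (SD, n = 3 each), by a log2 fold change of -0.25 (edgeR adjusted p = 0.0012). It was not called with total counts (-0.10). *ANXA4* overlaps *AAK1* on the opposite strand, which is also expressed. *ANXA7* and *ANXA11* were not called, at 0.12 and 0.06, and both passed with total counts, at 0.28 and 0.21. *S100PBP*, named as an S100P-binding protein, had a log2 fold change of 0.13 and was not called, but passed with total counts (0.28). *ANXA2R*, listed as an annexin A2 receptor, rose, with 0.627 ± 0.358 CPM in Ctrl and 2.46 ± 0.385 CPM with WNK463 (SD, n = 3 each; edgeR adjusted p = 1.26e-04). Both *S100A13* and *ANXA2R* passed the filter only because of their WNK463 samples, which favours a rise.

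Receptors for secreted S100 proteins and annexins were 7 in number, and 6 were tested. Of these, 3 rose, 1 fell and 2 were not called. Among the 3 that rose, *FPR1* and *AGER* passed the filter on low counts only because of their WNK463 samples, which favours a rise. *FPR1*, a formyl peptide receptor that annexin A1 can bind, had 0.43, 0.55 and 0.49 CPM in Ctrl and 3.80, 2.79 and 3.38 CPM with WNK463, a log2 fold change of 2.76 (standard error 0.32, edgeR adjusted p = 4.99e-07). *FPR2*, the annexin A1 receptor of the same family, had a log2 fold change of 0.00 (95% interval -0.44 to 0.45), and *FPR3* did not pass the filter. Among receptors of the calprotectin subunits, *CD36* rose from 66.0 ± 4.89 to 230 ± 6.67 CPM and *AGER*, which encodes RAGE, from 0.873 ± 0.306 to 2.35 ± 0.598 CPM, while *TLR4* fell from 34.1 ± 0.603 to 23.7 ± 1.59 CPM (SD, n = 3 each). *BSG*, which encodes basigin, was not called (log2 fold change -0.08).

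Intracellular binding partners went both ways, with 3 of 10 tested genes higher and 5 lower. *MYOF*, a ferlin of membrane repair, was at 7.61 ± 1.56 CPM in Ctrl and 1.02 ± 0.381 CPM with WNK463 (SD, n = 3 each). It fell with a log2 fold change of -2.90 (edgeR adjusted p = 2.28e-08). *TPM4*, a tropomyosin, and *CACYBP*, which encodes the calcyclin-binding protein, fell as well, with log2 fold changes of -0.80 and -0.35. *CACYBP* was not called in the 3 fits on TPM, where its WNK463 samples had 349, 351 and 128 TPM. *PLA2G4A*, the cytosolic phospholipase A2, rose by 0.85, *LCP1*, a plastin, by 0.30, and *AHNAK*, a scaffold of the *S100A10* and *ANXA2* complex, by 0.24. In the plasminogen system, with which that complex is associated at the cell surface, *PLAUR*, the urokinase receptor gene, rose by 0.27 and *ENO1* fell by 0.88 on the log2 scale.

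Other calcium-binding proteins were all tested, and 9 of 18 rose, 7 fell and 2 were not called. *CPNE3*, a copine, rose with a log2 fold change of 1.37, and *GSN* (gelsolin) and *CHP1* rose with 0.73 and 0.61. *CALR* (calreticulin) and *RCN1* (reticulocalbin 1), proteins of the endoplasmic reticulum, fell with -1.20 and -0.95. *CALM3*, which encodes calmodulin, fell with -0.78. Over the 6 lists of other family genes, receptors, partners and calcium-binding proteins, 34 of 47 tested genes were called, near the background of 70.8%.

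**Figure D4:**
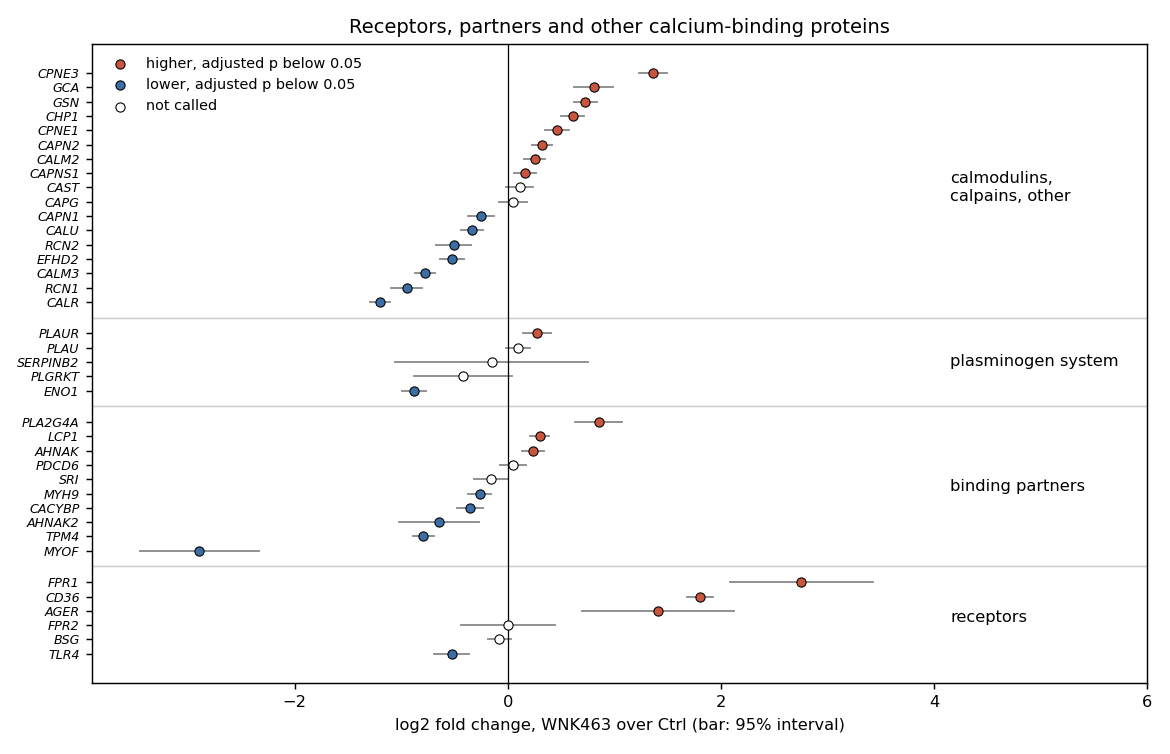
Log2 fold change of WNK463 over Ctrl for tested genes of 4 lists, each point with its 95% interval, coloured by whether it was called higher (red), lower (blue) or not called (white) at an adjusted p below 0.05. *FPR1* lies farthest to the right, at 2.76, and *MYOF* farthest to the left, at -2.90.

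Some genes of mature macrophages also rose. Of 8 such markers 5 were tested, and 4 rose at least 2-fold, *C1QA*, *C1QB*, *C1QC* and *APOE*. *C1QA* had 24, 4 and 20 counts in Ctrl, and the other 3 had at most 4 in any Ctrl sample. All 4 passed the filter on low counts only because of their WNK463 samples. Their number therefore cannot be read against the 9.62% of all tested genes that rose at least 2-fold. *MARCO* was not called (log2 fold change -0.27), and *MSR1*, below the filter, had 1 count in each Ctrl sample and 0 with WNK463. The summed level of the 8 was 2.38 to 3.36 CPM in Ctrl and 19.7 to 20.7 CPM with WNK463. The defining markers *CD163* and *MRC1* had at most 1 count in any sample. The part of these genes, and of the listed myeloid markers, in the rise of *ANXA1* and *S100A9* was not tested.

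The genes with the profile nearest to *ANXA1*, by Euclidean distance of log2 CPM over the 6 samples after centring on the Ctrl mean, were *REEP3*, *AMY2B* and *MT2A*, at distances of 0.349, 0.349 and 0.365. Their log2 fold changes were 2.56, 2.46 and 2.49. Those nearest to *S100A9* were *DUSP10*, ENSG00000203546 and *HSD11B1L*, at 0.207, 0.216 and 0.216. With 2 groups of samples, such a distance mostly measures an equal fold change.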

How the data were processed

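The series holds RNA-seq of 6 MV4-11 samples, 3 Ctrl and 3 WNK463, grouped by their labels. The authors deposited 1 table of 20348 genes with estimated counts per gene and sample, rounded to whole numbers and not normalized. The authors also deposited TPM values, which are relative to 1000000 transcripts in each sample. The authors' mean TPM per group, log2 fold change, p-value and its adjustment stand beside these and were not used. The submitters' processing notes name GRCh38, fastp, Bowtie2, HISAT2, StringTie, RSEM, DESeq2 and edgeR without roles or versions. mRNA was captured with beads.

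The counts were tested with edgeR 4.0.16 in R 4.3.3 (quasi-likelihood test after filterByExpr and TMM, without a replicate block), with Benjamini-Hochberg adjustment over 11973 genes. Standard errors were obtained from each log2 fold change and its F statistic, and the 95% intervals use the moderated degrees of freedom. Replicates of a group differed by more than sampling noise, at a chi-square of 2.66 to 7.42 per degree of freedom. Samples with the same number did not deviate together (correlations 0.02, -0.01 and -0.05), so the numbers were not taken as pairs. Profile distances used 11872 genes without a count of 0. On simulated data for this comparison, run on 11879 genes, edgeR recovered 74 of 76 genes changed 1.5-fold and 71 of 71 changed 2-fold, with 13 false calls. Far fewer genes were changed there than were called in the data, with rises and falls equally likely. Genes of low count were not among those changed, and all genes had the same dispersion. The simulation therefore does not cover genes of low count or the choice of scaling.

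The genes named are the 10 members, the tested genes of both families, in each longer partner list the 3 higher and 3 lower called genes of lowest p (or fewer), and the 3 genes nearest in profile to the 2 members with the largest change. Members and lists were chosen with earlier results of these data known. Alternatives were DESeq2 1.42.0, total-count scaling, other filters, a replicate block, limma 3.58.1 on log2(TPM + 1) and log2(TPM + 0.1), glmTreat and each sample left out. Pseudogene copies of the members were not analysed here, and some genes of the lists are counted but not reported singly here. Promoter sequences are from RefSeq (GRCh38.p14), where all 10 members matched.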

Additional observations from a re-analysis of the deposited data

How the results depend on the processing

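In each of 14 alternatives the 6 called members were called again in the same direction, while *S100A8*, *S100A10* and *ANXA2* passed in none. The number of called members was 6 or 7, and 7 with total counts and with the 3 fits on TPM, which added *ANXA6*. At least 2-fold, 2 members were called in 14 of 15 alternatives, and a test against a 1.5-fold change (glmTreat) gave 3, with *S100A11* added. Between 30 and 39 partner genes were called. With the replicate block 6 members, 2 members at least 2-fold and 35 partner genes were called, and an exact sign-flip permutation test gave p = 0.25 for the *S100A8* to *S100A9* ratio and p = 1 for the other, 0.25 being the smallest it allows. The values of 3 uncalled members turned positive with total counts: 0.0459 for *S100A10*, 0.11 for *ANXA2* and 0.11 for *ANXA6*. With limma on log2(TPM + 1) they were 0.091, 0.0899 and 0.14, the same without a filter on TPM, and with log2(TPM + 0.1) 0.092, 0.0903 and 0.14. *S100B* turned to -0.25 without Ctrl replicate 3 and to -0.04 without WNK463 replicate 2, and ranged up to 0.36 with each sample left out. The log2 difference of the *S100A10* to *ANXA2* ratio, 0.0017, was -0.0539 as a ratio of counts and ranged from -0.0766 to 0.14 with each sample left out. That of *S100A8* to *S100A9* ranged from -1.42 to -0.61. The cause was not tested. Over 42 named genes, 543 of 580 combinations kept direction and call, 8 lost the call, 15 gained it and 14 changed sign. Limma called 1109 genes at least 2-fold on log2(TPM + 1), 1151 without the filter and 1483 on log2(TPM + 0.1), in place of 1817. Summing *ANXA2* with its pseudogenes was not run. The low counts of *S100A8*, *S100A13* and *FPR1* limit their precision.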

Other observations

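Of the S100 genes and annexins, 12 and 6 were below the filter on low counts, none above 9 counts in a sample, and these values were read after the others. *S100A12*, the calgranulin that accompanies calprotectin in neutrophils, had 0 counts in each Ctrl sample and 0, 1 and 2 with WNK463. *S100A3*, which overlaps *S100A4*, had 1, 0 and 0 counts in Ctrl and 8, 3 and 9 with WNK463. *S100A16* had 5, 3 and 3 counts in Ctrl and 0, 1 and 0 with WNK463, and *ANXA8* 5, 2 and 1 in Ctrl and 0 in each treated sample. *ANXA3* had 0 counts in 5 samples and 1 count in the other, and *S100A7*, *S100A7A*, *S100G*, *ANXA10* and *ANXA13* had 0 in all 6. None of these genes was tested.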
